A study of Mus musculus with 24 samples.

Results

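The genes described here encode 10 core proteins of the Polycomb repressive complexes: Ezh1, Ezh2, Eed, Suz12, Bmi1, Ring1, Rnf2, Cbx2, Cbx7 and Cbx8. They were taken by symbol from a table of gene counts. All 10 were among its 24046 rows, and all 10 passed the filter on low counts that left 14099 genes for testing. RNA had been sequenced from 24 libraries of mouse bone marrow leukaemia cells, in 8 groups of 3. All groups carried the MLL-AF9 fusion, a driver of acute leukaemia, and all carried a Cre recombinase. The cells came from moribund mice that had received a secondary transplant. The libraries form 4 sets, each with 3 controls (Cre and wild-type alleles) and 3 floxed libraries (Cre and fl/fl alleles). The VavCre Arid1b set held Arid1b +/+ VavCre+ and Arid1b fl/fl VavCre+ cells, and the VavCre Arid2 set held Arid2 +/+ VavCre+ and Arid2 fl/fl VavCre+ cells. Vav-driven Cre acts throughout the blood lineage. Mx-driven Cre responds to interferon, so recipients in the MxCre sets were injected 3 times with the inducer pIpC (12.5 µg per g of body weight), from 21 days after transplantation. For both MxCre sets the sample title and the cell type label name different genes: the set titled A2 is labelled as Arid1b cells, and the set titled A1b as Arid2 cells. These sets are named by title below, and no deleted gene is assigned to them. Neither the age of the mice nor the number of independent leukaemias is given in the labels, so the p-values measure the spread between these libraries only.

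Polycomb proteins keep genes silent. Polycomb repressive complex 2 (PRC2) places methyl groups on lysine 27 of histone H3 through EZH1 or EZH2, which need EED and SUZ12 as partners. Polycomb repressive complex 1 (PRC1) attaches ubiquitin to histone H2A through RING1 or RNF2 (also called RING1B); BMI1 is a partner of these enzymes, and the CBX proteins read the methylated histone. ARID1B and ARID2 are subunits of the BAF and PBAF forms of SWI/SNF, a chromatin remodeller that opposes Polycomb at many genes. In leukaemia driven by MLL-AF9, loss of PRC2 or PRC1 members is known to slow the disease.

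Several measurements of whole libraries bear on what follows. Library totals ran from 12069153 to 38315410 counts. Arid1b lay at 220, 186 and 367 CPM (read counts relative to library size, with TMM scaling) in the VavCre Arid1b controls and at 140, 184 and 169 CPM in the floxed libraries. Arid2 lay at 218, 443 and 237 CPM in the VavCre Arid2 controls and at 290, 281 and 197 CPM in the floxed libraries. Neither passed the test used below (adjusted p = 0.407 and 0.802), and counts over a whole gene need not show the loss of single exons. In an alternative fit 3 libraries, chosen from earlier results of these data and not by 1 rule, were left out together. Under VavCre this was Arid1b control 3, and under MxCre it was A2 floxed 3 and A1b floxed 2. The control differed from controls 1 and 2 by a chi-square of 127 per gene, against 25.8 between those 2. Those 2 MxCre libraries held 786 and 570 CPM of globin RNA. A2 floxed 3 differed from floxed 1 and 2 of its group by a chi-square of 348 and 398, against 42.1. By the same chi-square other libraries also lay away from the rest of their group: control 2 of the set titled A1b differed from controls 1 and 3 by 92.6 and 106, against 13.7 between those 2, and floxed 1 of the VavCre Arid1b set from floxed 3 and 4 by 85.2 and 60.3, against 21.6. In the VavCre Arid2 set control 3 differed from controls 1 and 2 by 107 and 82.2, against 41. Floxed 3 of that set differed from floxed 1 and 2 by 114 and 178, against 58.8. Floxed 2 of the set titled A1b differed from floxed 1 and 3 by 198 and 116, where those differed by 118. In this floxed 2, log2 CPM relative to each gene's mean was lower for genes with longer exons (Spearman rho -0.402). In the other libraries rho ran from -0.175 to 0.197. Each library was also left out alone. The Y-linked gene Kdm5d was above 10 CPM in 3 of 3 controls and 0 of 3 floxed libraries of the VavCre Arid1b set, and in 0 of 3 controls and 3 of 3 floxed libraries of the MxCre set titled A2, so sex and genotype cannot be told apart within them. Some alternative fits below hold a term for Y-positive libraries. It is estimated only from groups that held both kinds of library, none of them in these sets. The term therefore cannot separate sex from genotype there. Leukaemia markers (Ptprc, Itgam, Mpo, Hoxa9 and Meis1) summed to between 1430 and 12300 CPM, with none at 0 in any group.

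Marker genes of blood cell types differed between floxed and control libraries in the VavCre sets. A list of 10 dendritic cell and MHC class II genes summed to 75.5 to 277 CPM in the VavCre Arid1b controls and to 1230 to 3080 CPM in the floxed libraries, and 9 of its 10 genes rose. Of 9 tested monocyte and macrophage genes 3 passed the test used below in the same set, and these rose. The list summed to 567 to 1060 CPM in controls and to 1680 to 3320 CPM in floxed libraries. DESeq2 and voom, the alternative tests, called 5 and 7 of the 9. The test used below called 6.57% of all genes in that set. With Arid2 under VavCre, 10 neutrophil genes summed to 4070 to 9460 CPM in controls and to 190 to 942 CPM in floxed libraries. The test used below called 1 of them, which fell, with 6 at an unadjusted p under 0.05. DESeq2 and voom called 6 each. The B cell list summed to 28 to 33.6 CPM in controls and to 2.84 to 6.09 CPM in floxed libraries there, with 1 of 9 tested genes called and 1 gene at 0 in the floxed libraries. The dendritic cell and MHC class II list was also separated in the VavCre Arid2 set. It summed to 88.5 to 124 CPM in controls and to 223 to 1120 CPM in floxed libraries. The test used below called 0 of its 10 genes there, DESeq2 1 and voom 2. Of all genes 1.31% were called in the VavCre Arid2 set. In the set titled A2 the B cell list held 39.9 to 48.7 CPM in controls and 12.1 to 33.5 CPM in floxed libraries. No gene of the erythroid, T and NK cell, stromal or leukaemia lists was called in any set. The part of these cell types in the results below was not tested, and in bulk RNA fewer cells of a type and less RNA per cell cannot be told apart. Nor can leukaemia cells and other cells be told apart as the source of this RNA.

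Promoter sequences are shown for 4 members, because Suz12 and Ezh2 were the only members whose window held an E2F-type motif and Bmi1 and Cbx7 had the lowest adjusted p-values of all members. RefSeq promoters on GRCm38.p6 were matched for 9 of the 10 members. Each runs 5′ to 3′ from 250 bases before the transcription start to 30 bases after it. Capitals mark the motifs searched, on either strand. E2F-type motifs were read as TTTCCCGC and as TTTCGCGC, and also as TTTGCCGC and as TTTGGCGC. The CHR motif was read as TTTGAA, the ETS motif as CCGGAAGT and the CRE motif as TGACGTCA. The CCAAT box and the NRF1 and YY1 motifs were searched too. In these sequences CHR can appear as TTCAAA and the CCAAT box as ATTGG, which are their other strands.
Suz12 (chr11:79992856-79993135, + strand): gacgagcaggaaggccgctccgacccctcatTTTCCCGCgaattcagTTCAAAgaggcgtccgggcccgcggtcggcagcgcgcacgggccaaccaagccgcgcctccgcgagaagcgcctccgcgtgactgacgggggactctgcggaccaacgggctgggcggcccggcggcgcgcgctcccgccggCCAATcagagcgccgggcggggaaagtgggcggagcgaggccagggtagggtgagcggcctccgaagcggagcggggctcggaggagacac
Ezh2 (chr6:47595001-47595280, - strand): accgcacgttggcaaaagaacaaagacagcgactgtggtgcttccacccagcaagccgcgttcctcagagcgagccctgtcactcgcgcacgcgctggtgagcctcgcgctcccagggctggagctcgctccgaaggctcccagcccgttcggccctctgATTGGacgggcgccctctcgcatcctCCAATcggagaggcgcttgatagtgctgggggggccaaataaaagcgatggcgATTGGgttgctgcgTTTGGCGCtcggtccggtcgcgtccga
Bmi1 (chr2:18676768-18677047, + strand): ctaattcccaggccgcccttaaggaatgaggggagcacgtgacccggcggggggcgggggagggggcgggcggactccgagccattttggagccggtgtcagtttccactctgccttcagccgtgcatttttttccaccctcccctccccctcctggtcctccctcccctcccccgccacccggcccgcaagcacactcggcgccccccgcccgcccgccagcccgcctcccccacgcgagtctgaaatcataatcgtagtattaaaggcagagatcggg
Cbx7 (chr15:79932617-79932896, - strand): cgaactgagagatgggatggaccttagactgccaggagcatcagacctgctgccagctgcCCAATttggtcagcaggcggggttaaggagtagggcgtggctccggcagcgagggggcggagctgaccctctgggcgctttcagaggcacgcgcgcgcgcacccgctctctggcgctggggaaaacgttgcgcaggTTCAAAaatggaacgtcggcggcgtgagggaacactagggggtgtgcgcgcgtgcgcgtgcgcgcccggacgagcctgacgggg

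The E2F-type motif of Suz12 lies at bases -219 to -212 from the start (+1 is the first transcribed base), and that of Ezh2 at +4 to +11. Over the full windows of 300 bases, 2.26% of 32851 mouse promoters held such a motif. CCAAT was found in the windows of Ezh2, Eed, Suz12, Cbx7 and Cbx8 and in 37.4% of all promoters, and CHR in those of Eed, Suz12 and Cbx7 and in 17.9% of all. The promoter of Cbx8 held the CRE motif at -29 to -22 (1.79% of all promoters). No member had the ETS, NRF1 or YY1 letters, which 3.89%, 0.971% and 0.633% of promoters held. Polycomb gene promoters were rich in CpG, with 17 to 41 CpG per window against a median of 7, and 8 of the 9 held 20 or more against 26.5% of all promoters. The Bmi1 window held none of the motifs searched. A match is a description of letters and not of binding.

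All 10 genes were expressed in all 24 libraries. Levels per exon length (CPM per kb of exon) put Suz12, the PRC2 scaffold, highest at 51.8 ± 12.9 (SD over 24 libraries). Ezh2 followed at 22.8 ± 3.87 and Eed at 21 ± 1.79, and then Rnf2 at 15.5 ± 3.59 and Bmi1 at 15.4 ± 3.37. Ring1 (10.4 ± 1.46) and Ezh1 (8.36 ± 1.4) were lower, and the 3 CBX genes were lowest, at 4.59 ± 1.19 for Cbx8, 4.21 ± 1.69 for Cbx7 and 1.19 ± 0.727 for Cbx2. The core of PRC2 was thus the most abundant and these CBX readers the least, with Ezh1 below its partners. Spread between libraries differed among the members too. Eed, the subunit that binds methylated lysine 27, had an SD of log2 CPM of 0.12, lower than all but 0.674% of tested genes. Cbx2 had an SD of 1.12 and ranged 14.5-fold, from 0.773 CPM to 11.2 CPM. The median SD of all tested genes was 0.40. In the order of the 8 group means, neighbouring groups differed by less than the larger of their SDs in all 7 pairs for 8 members. The exceptions were the highest group of Cbx2 and the lowest of Cbx7.

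**Figure D1:**
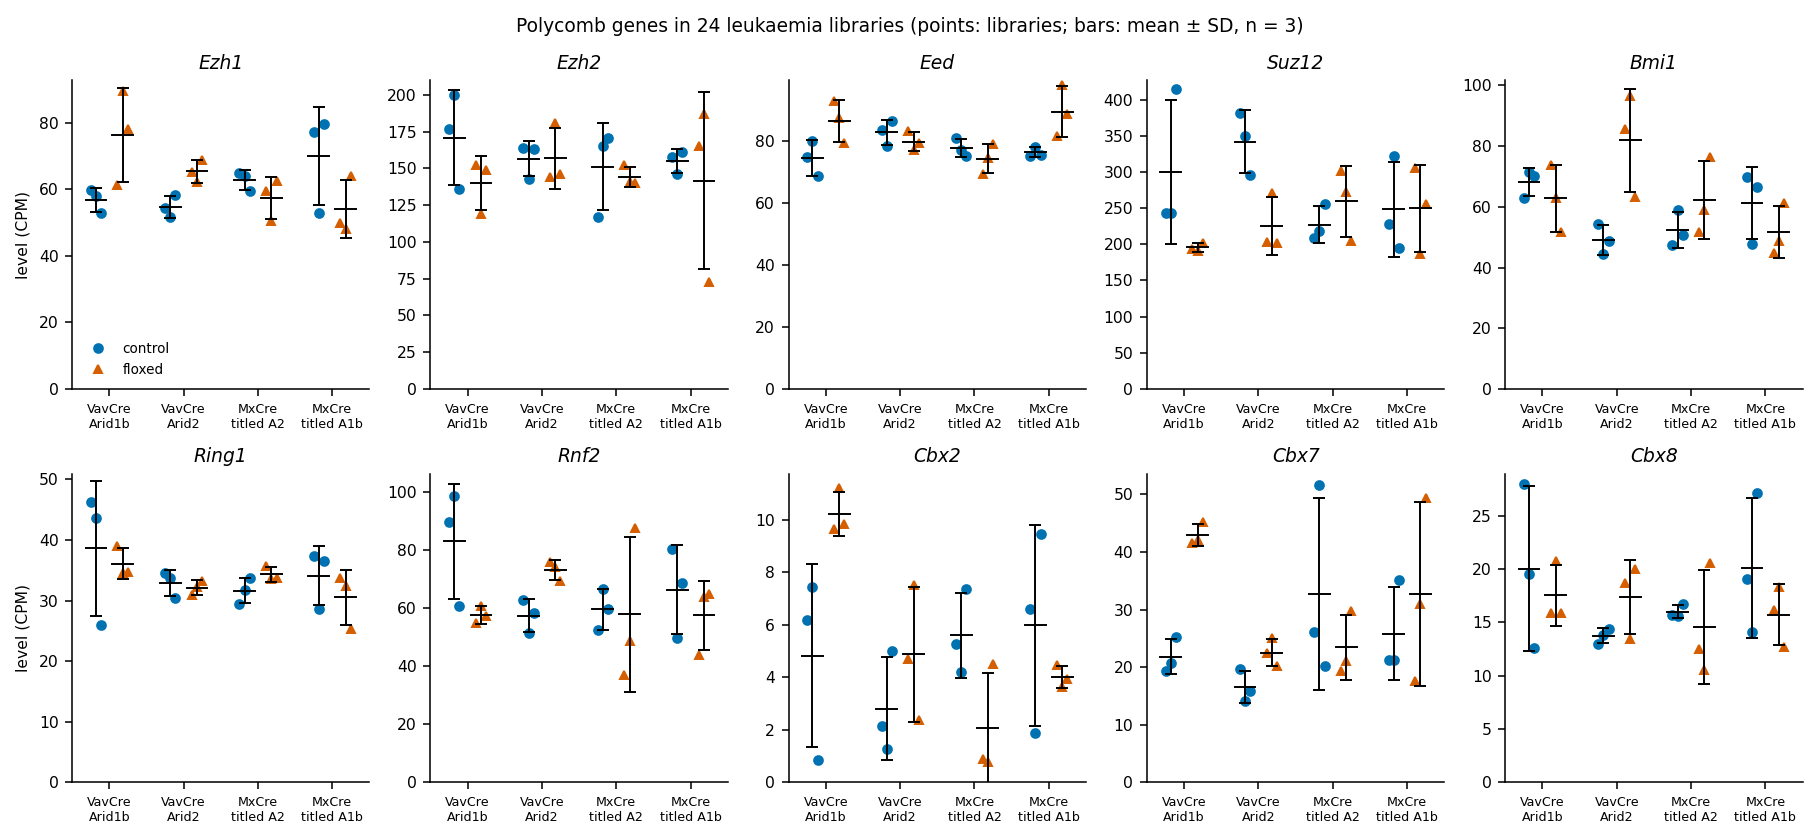
Level of each Polycomb gene in CPM (vertical axes from 0, each with its own scale) in the 24 libraries, with controls as circles and floxed libraries as triangles in 4 sets, and bars for the mean ± SD of 3 libraries (the lower bar of Cbx2 in the MxCre set titled A2 passes below 0). Cbx7 in the VavCre Arid1b set and Bmi1 in the VavCre Arid2 set have all floxed libraries above all controls, Suz12 has them below in both VavCre sets, and Eed is nearly level throughout.

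No Polycomb gene passed the test in any set. Floxed and control libraries were compared for all 14099 genes with edgeR's quasi-likelihood test, with calls made where the Benjamini-Hochberg adjusted p was under 0.05. With Arid1b under VavCre, 0 of the 10 members were called, where 6.57% of all tested genes were. The other sets also had 0 of 10, where 1.31% of all genes were called with Arid2 under VavCre, 0.0284% in the MxCre set titled A2 and 0.00709% in that titled A1b. Members with an unadjusted p under 0.05 numbered 4, 2, 0 and 2 in that order, against 24%, 19.5%, 10.6% and 17.4% of all genes. DESeq2 called 1, 1, 0 and 0 members, and voom with sample weights 4, 4, 1 and 0. Averaged over the 4 sets edgeR called 0 (1.72% of all genes; 1 at an unadjusted p under 0.05, Suz12, where 16.7% of all genes were; 0 by DESeq2 and 0 by voom). A test for any difference among the 8 groups also called 0 members (7.98% of all genes), with 3 at an unadjusted p under 0.05 (29.2% of all genes), 3 called by DESeq2 and 8 by voom.

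Direction was mixed. The 10 members had a median log2 fold change of -0.11 with Arid1b and 0.30 with Arid2 under VavCre, where all genes had -0.06 and 0.00. For the MxCre sets titled A2 and A1b it was -0.07 and -0.18, where all genes had 0.02 and 0.01. Genotypes were fully separated, with no overlap of libraries, for 5 of 10 members under VavCre with Arid1b (32.4% of all genes) and for 5 of 10 with Arid2 (36.1%). The counts in the MxCre sets were 0 of 10 (15% of all genes) for A2 and 1 of 10 (14.1%) for A1b. Suz12, Cbx7, Ezh1 and Rnf2 were separated in both VavCre sets: Suz12 was lower and Cbx7 and Ezh1 higher in both, and Rnf2 was lower in the Arid1b set and higher in the Arid2 set. None of these differences passed the adjusted threshold.

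**Figure D2:**
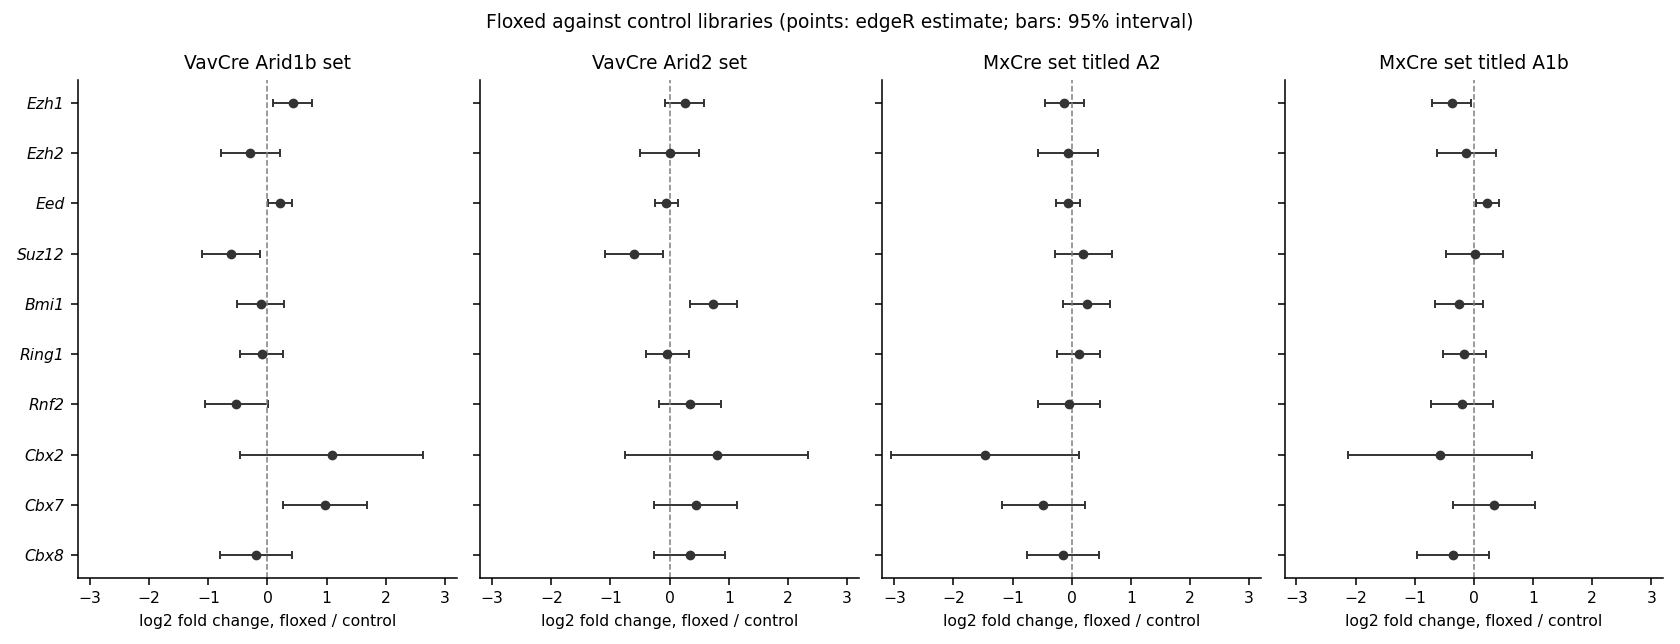
Log2 fold change of floxed over control libraries (horizontal axes) for the 10 Polycomb genes in each of the 4 sets, with points for the edgeR estimate and bars for the 95% interval, unadjusted for the number of genes. The interval lies off 0 for Cbx7, Suz12, Eed and Ezh1 in the VavCre Arid1b set, for Suz12 and Bmi1 in the VavCre Arid2 set and for Eed and Ezh1 in the MxCre set titled A1b.

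Suz12 was lower in the floxed libraries of both VavCre sets. This gene (GRCm38 chromosome 11, 79993106 to 80034123, plus strand) encodes the subunit that holds PRC2 together. With Arid1b under VavCre, it lay at 243, 243 and 415 CPM in controls and at 194, 191 and 202 CPM in floxed libraries. All 3 floxed libraries were below all controls, and they lay close together. On the log2 scale floxed over control was -0.62 ± 0.23 (SE; edgeR adjusted p = 0.110). Control 3, the highest of all 24 libraries for Suz12, was also the control farthest from the others of its group. Without that library the log2 fold change was -0.28 (edgeR adjusted p = 0.567), and over 14 alternative settings it lay between -0.75 and -0.28, with adjusted p from 0.0528 to 0.567. With Arid2 under VavCre, Suz12 lay at 381, 349 and 296 CPM in controls and at 203, 271 and 202 CPM in floxed libraries. Again no floxed library reached the lowest control. EdgeR put the log2 fold change at -0.60 ± 0.23 (edgeR adjusted p = 0.163). Over 14 alternative settings it lay between -0.75 and -0.52 with adjusted p from 0.00189 (voom) to 0.397 (without control 1), and the fit without the 3 libraries named above, none of them in this set, gave -0.59 (edgeR adjusted p = 0.0438). In the MxCre sets controls and floxed libraries overlapped. Suz12 lay at 208, 218 and 256 CPM in the A2 controls and at 301, 272 and 205 CPM in the floxed libraries, and at 228, 322 and 195 CPM against 306, 187 and 256 CPM in the set titled A1b. The log2 fold changes there were 0.19 ± 0.23 and 0.01 ± 0.23.

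Ezh1 and Ezh2, are the alternative methyltransferases of PRC2. Ezh1 is the form known from cells that divide little, and Ezh2 the form known from dividing cells. Ezh1 (chromosome 11, 101191115 to 101226463, minus strand) lay at 59.7, 57.9 and 52.9 CPM in the VavCre Arid1b controls and at 61.3, 89.5 and 78.2 CPM in the floxed libraries. Floxed 1 was barely above the controls, and the other floxed libraries were the highest of the set. This gave a log2 fold change of 0.43 ± 0.16 (edgeR adjusted p = 0.105). Without floxed 1 it was 0.56 (edgeR adjusted p = 0.049), and without floxed 3 it was 0.30 (edgeR adjusted p = 0.407). The adjusted p was 0.373 with the replicate block and 0.00311 by voom, and all other settings missed the threshold. The replicate block treats libraries of equal number within a set as pairs. In this set only numbers 1 and 3 occur in both groups, so control 2 and floxed 4 add nothing to the comparison there. With Arid2 under VavCre, Ezh1 was at 54.4, 51.6 and 58.2 CPM in controls and at 65.1, 62.2 and 68.9 CPM in floxed libraries, again without overlap. The log2 fold change was 0.26 ± 0.16 (edgeR adjusted p = 0.383). In the MxCre set titled A1b the order turned, with 77.1, 53 and 79.7 CPM in controls and 49.9, 48.2 and 64 CPM in floxed libraries (log2 fold change -0.37 ± 0.16; edgeR adjusted p = 0.234). These groups overlapped through control 2. In the set titled A2 the log2 fold change was -0.13 ± 0.16, with libraries from 50.4 to 64.8 CPM.

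Ezh2 (chromosome 6, 47530139 to 47595341, minus strand) differed little between genotypes. With Arid1b under VavCre, it lay at 177, 200 and 136 CPM in controls and at 152, 119 and 149 CPM in floxed libraries. Those groups overlapped, at a log2 fold change of -0.29 ± 0.24 (edgeR adjusted p = 0.499). The VavCre Arid2 groups had equal means of 157 ± 11.6 and 157 ± 21 CPM (SD, n = 3), and the 95% interval of the log2 fold change ran from -0.498 to 0.505. The lowest of the 24 libraries was floxed 3 of the MxCre set titled A1b at 73.1 CPM, while the other floxed libraries of that set held 165 and 187 CPM, above its controls of 158, 146 and 161 CPM. Its log2 fold change was -0.13 ± 0.24 and became 0.18 without that library (edgeR adjusted p = 0.591). In the set titled A2 it was -0.07 ± 0.24.

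Eed (chromosome 7, 89954654 to 89980983, minus strand) stayed between 68.8 and 98.3 CPM. Its levels in the MxCre set titled A1b were 75.4, 78.3 and 75.7 CPM in controls and 81.9, 98.3 and 88.8 CPM in floxed libraries. All floxed libraries lay above all controls there, the only such separation of a member in an MxCre set. The difference was small, at a log2 fold change of 0.23 ± 0.10 (1.17-fold; edgeR adjusted p = 0.228). With Arid1b under VavCre, Eed lay at 74.9, 80.3 and 68.8 CPM in controls and at 93, 87.6 and 79.5 CPM in floxed libraries, with floxed 4 below control 2. On the log2 scale floxed over control was 0.22 ± 0.10 (edgeR adjusted p = 0.179). In the VavCre Arid2 set and the MxCre set titled A2 it was -0.05 ± 0.10 and -0.07 ± 0.10. Exons of Eed share 261 bases with E230029C05Rik on the other strand, and the strand setting of the counting is not given in the sources used here.

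Bmi1 was the member with the lowest adjusted p of the floxed comparisons, in the VavCre Arid2 set. BMI1 (PCGF4) supports self-renewal of blood stem cells and leukaemia stem cells, and its gene spans chromosome 2 from 18677018 to 18686629 on the plus strand. It lay at 54.3, 44.5 and 48.6 CPM in the VavCre Arid2 controls and at 85.7, 96.6 and 63.3 CPM in the floxed libraries. All floxed libraries were above all controls, and 85.7 and 96.6 CPM were the highest values of the 24 libraries. EdgeR put the log2 fold change at 0.74 ± 0.19 (1.67-fold), with an edgeR adjusted p of 0.0579 that missed the threshold. Without floxed 3, the lowest of the floxed libraries, it was 0.89 with an edgeR adjusted p of 0.033. DESeq2 called the gene (0.73, adjusted p = 0.00883). Over 14 alternative settings the estimate stayed between 0.61 and 0.89 and the adjusted p between 0.000483 and 0.258. The controls of this set were also the lowest group of the 8, at 49.1 ± 4.92 CPM against 68.1 ± 4.6 CPM (SD, n = 3) in the VavCre Arid1b controls. Those groups differed by a log2 fold change of -0.47 ± 0.19 (edgeR adjusted p = 0.316). With Arid1b under VavCre, Bmi1 lay at 62.9, 71.5 and 70 CPM in controls and at 73.8, 62.9 and 51.7 CPM in floxed libraries, with overlap and a log2 fold change of -0.12 ± 0.19. The estimates were 0.25 ± 0.19 in the MxCre set titled A2, where floxed 3 was highest at 76.5 CPM, and -0.25 ± 0.19 in the set titled A1b.

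Rnf2 and Ring1, the alternative ubiquitin ligases of PRC1, differed in how much they varied. Rnf2 (chromosome 1, 151458004 to 151500955, minus strand) lay at 89.7, 98.7 and 60.9 CPM in the VavCre Arid1b controls and at 54.9, 60.8 and 57.5 CPM in the floxed libraries. The groups missed each other only because control 3 stood just above the highest floxed library. This gave a log2 fold change of -0.53 ± 0.25 (edgeR adjusted p = 0.209), and -0.69 with an edgeR adjusted p of 0.0394 without the 3 libraries named above, control 3 among them. Over 14 alternative settings it lay between -0.69 and -0.36, with adjusted p from 0.00217 (voom) to 0.614 (replicate block). With Arid2 under VavCre, Rnf2 lay at 62.8, 51.4 and 58.4 CPM in controls and at 76.1, 74.2 and 69.5 CPM in floxed libraries. All floxed libraries were above the controls, opposite to the Arid1b set. The log2 fold change was 0.35 ± 0.25 (edgeR adjusted p = 0.467). In the MxCre set titled A2 the floxed libraries spread from 37 CPM to 87.8 CPM, the lower of them the lowest of all 24 for Rnf2, and the log2 fold change was -0.05 ± 0.25. In the set titled A1b it was -0.21 ± 0.25. Rnf2 shares 158 exonic bases with Trmt1l on the other strand. Ring1 (chromosome 17, 34020792 to 34024680, minus strand) ranged from 25.3 to 46.3 CPM. Its highest values were 46.3 and 43.7 CPM in VavCre Arid1b controls 1 and 2, while control 3 held 25.9 CPM. Its log2 fold change lay between -0.16 and 0.12 in the 4 sets, with SE of 0.17 in each.

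Cbx7 was higher where Arid1b was floxed under VavCre. CBX7 is the reader of methylated lysine 27 tied to self-renewal of blood stem cells, and its gene spans chromosome 15 from 79915807 to 79971119 on the minus strand. It lay at 19.4, 20.8 and 25.3 CPM in controls and at 41.6, 42 and 45.2 CPM in floxed libraries. Both groups were tight and well apart. On the log2 scale floxed over control was 0.97 ± 0.34 (1.96-fold; edgeR adjusted p = 0.0858). Fitted to the 6 libraries of the set alone it was 0.99 with an edgeR adjusted p of 0.023, and DESeq2 gave 0.99 with an adjusted p of 0.037. With a term for Y-positive libraries, estimated from groups of other sets, it was 0.84 (edgeR adjusted p = 0.394). Over 14 alternative settings it lay between 0.84 and 1.13, with adjusted p from 0.00177 (voom) to 0.394. The 9 dendritic cell and MHC class II genes and 3 monocyte and macrophage genes given above rose in the same libraries. In the VavCre Arid2 set Cbx7 lay at 19.7, 14.1 and 15.9 CPM in controls and at 22.4, 25 and 20.2 CPM in floxed libraries. The groups did not overlap, at a log2 fold change of 0.44 ± 0.33 (edgeR adjusted p = 0.494). The highest value of all, 51.7 CPM, was in control 2 of the MxCre set titled A2, whose other controls held 26.2 and 20.2 CPM. The log2 fold change there was -0.48 ± 0.33 and became 0.02 without that control (edgeR adjusted p = 0.998). In the set titled A1b the floxed libraries ran from 17.6 to 49.4 CPM (0.34 ± 0.34). Cbx7 shares 100 exonic bases with Apobec3 on the other strand. The Cbx7 promoter window shown above lies inside the gene span given here. Its RefSeq start therefore differs from the start of the gene model used for exon length.

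Cbx2 and Cbx8 lie close to each other on chromosome 11, at 119022962 to 119031270 on the plus strand and at 119036305 to 119040969 on the minus strand. CBX2 compacts nucleosomes, and CBX8 is a cofactor of MLL-AF9 in leukaemia. Cbx2 lay at 6.19, 7.43 and 0.862 CPM in the VavCre Arid1b controls and at 9.64, 11.2 and 9.85 CPM in the floxed libraries. The floxed libraries were the 3 highest of all 24, and control 3 was among the lowest. The estimate was 1.08 ± 0.74 on the log2 scale, and its 95% interval ran from -0.47 to 2.63 (edgeR adjusted p = 0.399). Without control 3 it was 0.62 (edgeR adjusted p = 0.746), and over 14 alternative settings it lay between 0.61 and 2.21, none of them past the threshold. In the MxCre set titled A2 Cbx2 lay at 5.26, 4.2 and 7.37 CPM in controls and at 0.904, 0.773 and 4.5 CPM in floxed libraries. Floxed 1 and 2 were low, and floxed 3, the library rich in globin RNA, overlapped the controls. EdgeR put the log2 fold change at -1.46 ± 0.76 (edgeR adjusted p = 0.518). Without floxed 3 it was -2.73 (edgeR adjusted p = 0.182, and 0.0879 without the 3 libraries named above), and voom called it at -2.60 (adjusted p = 0.028). In the VavCre Arid2 set Cbx2 had a log2 fold change of 0.79 ± 0.74, which ran from 0.34 (without floxed 2) to 1.51 (without control 3) as each library was left out, and voom called it (1.29, adjusted p = 0.0445). In the set titled A1b it was -0.57 ± 0.74, from -0.99 (without control 2) to -0.07 (without control 3). Cbx2 was counted from 17 to 275 times per library, the fewest of the members. Cbx8 ranged from 10.5 to 28 CPM. Controls and floxed libraries overlapped in all 4 sets, and the log2 fold changes ran from -0.35 ± 0.29 (MxCre set titled A1b) to 0.34 ± 0.29 (VavCre Arid2 set).

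Differences between the floxed effects of the sets were tested directly, since a call in one set and none in another shows no difference. For the 6 pairs of sets edgeR called 0 of 10 members in each. The percentages of all genes called were 0.0142 for VavCre Arid1b minus VavCre Arid2, 7.35 and 0.745 for VavCre Arid1b minus the MxCre sets titled A2 and A1b, 0.489 and 1.5 for VavCre Arid2 minus the same, and 0.192 for A2 minus A1b. For VavCre Arid1b minus A2, sex coincided with genotype in both sets and in opposite directions. Sex and genotype cannot be told apart in that difference, nor in any other that includes the VavCre Arid1b set or the set titled A2. In these tests 3 members came near the threshold. Bmi1 differed by 0.99 ± 0.27 between the VavCre Arid2 set and the MxCre set titled A1b (edgeR adjusted p = 0.0638). Cbx7 differed by 1.46 ± 0.47 between the VavCre Arid1b set and the MxCre set titled A2 (edgeR adjusted p = 0.0649). The Cbx7 effect in the set titled A2 was -0.48 and became 0.02 without control 2 of that set. Ezh1 differed by 0.80 ± 0.22 between the VavCre Arid1b set and the MxCre set titled A1b (edgeR adjusted p = 0.0824). DESeq2 called 1 member in each of these 3 pairs, the one named here, and 0 in the other pairs. Voom called 2, 5, 1, 7, 3 and 0 members over the 6 pairs. Members with an unadjusted p under 0.05 numbered 2, 4, 1, 2, 2 and 1 in the order of the pairs above, where the percentages of all genes were 9.85, 25.2, 19.7, 18.6, 22.6 and 17.6. Between the VavCre sets, whose fold changes for Bmi1 and Rnf2 had opposite signs, the differences were -0.85 ± 0.27 for Bmi1 (edgeR adjusted p = 0.239) and -0.87 ± 0.36 for Rnf2 (edgeR adjusted p = 0.39). Controls of like label were compared as well. The VavCre Arid2 and Arid1b controls differed in 0 of 10 members (0.0426% of all genes), with 2 at an unadjusted p under 0.05 (12.5% of all genes), 0 by DESeq2 and 6 by voom. The MxCre controls differed in 0 members (0.00% of all genes), with 0 at an unadjusted p under 0.05 (5.79%) and 0 by DESeq2 and by voom.

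Polycomb subunits that replace one another were also compared as shares of their family per exon length. Ezh2 made up 76.7 ± 2.59% of EZH RNA in the VavCre Arid1b controls and 67 ± 6.94% in the floxed libraries (SD, n = 3). The Ezh2 to Ezh1 ratio was 3.3, 3.84 and 2.87 in those controls and 2.76, 1.48 and 2.13 in the floxed libraries, with no overlap. In the VavCre Arid2 set the ratio was 3.35, 3.09 and 3.12 in controls and 2.46, 3.25 and 2.36 in floxed libraries, which overlapped through floxed 2. In the MxCre set titled A1b it ran from 1.27 to 4.33 among floxed libraries alone, the widest span of any group. The value of 4.33 was that of floxed 2, the library whose levels fell most with exon length. Rnf2 held 59.4 ± 5.42% of the ligase RNA over 24 libraries, and in the VavCre sets its share went from 63.1 ± 2.42% to 55.7 ± 2.87% with floxed Arid1b and from 57.8 ± 2.96% to 64.2 ± 1.94% with floxed Arid2. These shares were not tested, and a share falls when another member of the family rises.

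**Figure D3:**
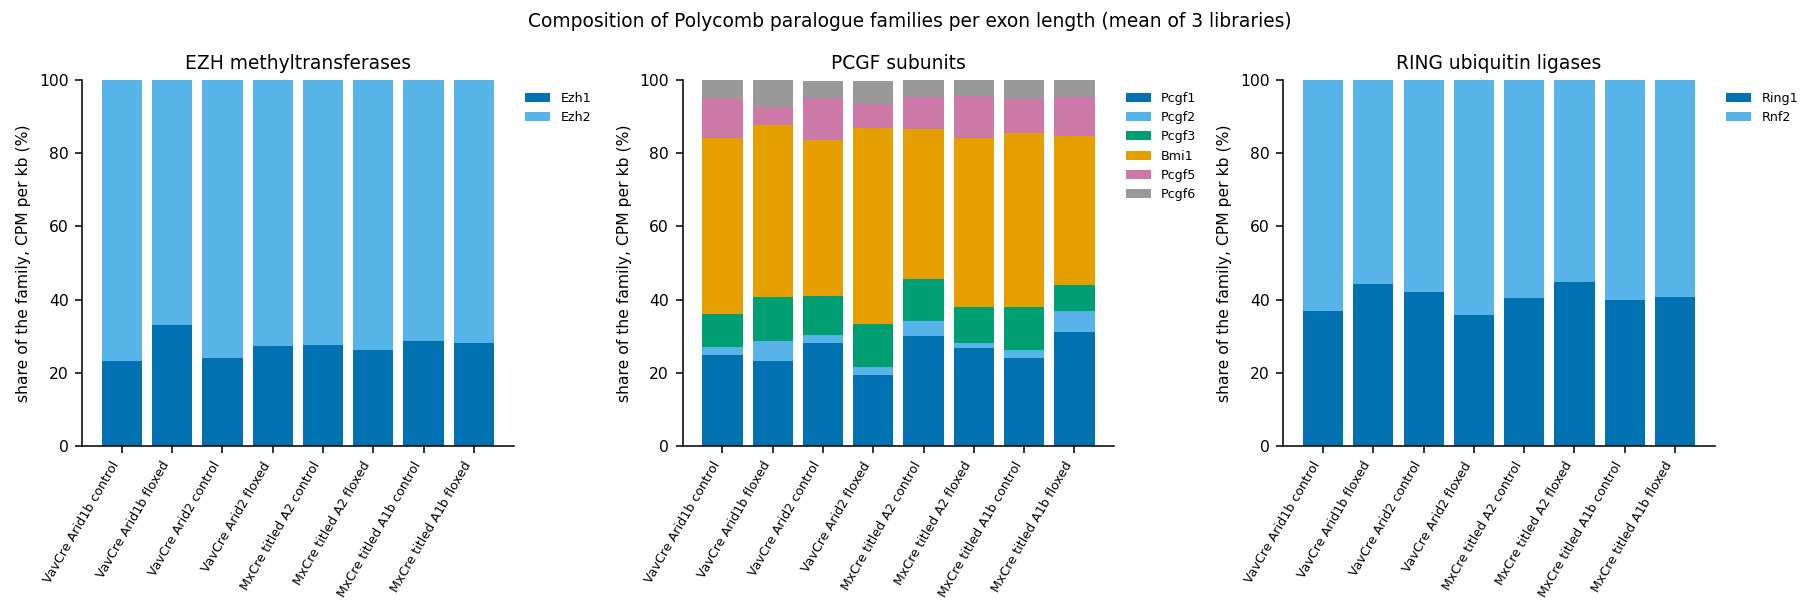
Share of each paralogue in the RNA of its family, from CPM per kb of exon (vertical axes in %, mean of 3 libraries), in the 8 groups for the EZH methyltransferases, the PCGF subunits and the RING ubiquitin ligases. The floxed group of the VavCre Arid1b set has the lowest shares of Ezh2 (67%) and Pcgf5 (4.7%) of the 8 groups, and the Rnf2 share is highest in the floxed group of the VavCre Arid2 set (64.2%).

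Beyond the 10 members, 41 other Polycomb genes were listed (PRC2 accessory subunits, other canonical and variant PRC1 subunits, and enzymes that remove Polycomb marks), and 40 were tested. In the VavCre Arid1b set 2 of the 40 fell and 0 rose, a smaller share than the 6.57% of all genes called there. Pcgf5, which takes the place of Bmi1 in a variant PRC1, lay at 45.2, 49.3 and 53.9 CPM in controls and at 20.9, 15.9 and 21.7 CPM in floxed libraries. No floxed library came near a control. Its log2 fold change was -1.34 ± 0.21 (edgeR adjusted p = 0.0036). The call held in 13 of 14 alternative settings and was lost with the replicate block (-1.44, edgeR adjusted p = 0.165). That block leaves control 2 and floxed 4 of this set without a partner. Yaf2, a RING1-binding subunit of variant PRC1, lay at 50.5, 38.1 and 38.6 CPM in controls and at 12.4, 18.1 and 26 CPM in floxed libraries, also without overlap. Its log2 fold change was -1.17 ± 0.30 (edgeR adjusted p = 0.0276), with the call kept in 7 of 14 settings. The call of Yaf2 was lost without control 1, control 3, floxed 1 or floxed 3 (edgeR adjusted p from 0.0567 to 0.116). It was also lost with a term for Y-positive libraries (edgeR adjusted p = 0.155), with the replicate block (0.165) and in the fit to the set's own 6 libraries (0.0616). Other tests gave 4 calls by DESeq2, 10 by voom and 8 at an unadjusted p under 0.05 in the VavCre Arid1b set, where 24% of all genes had such a p.

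In the other sets edgeR called 0 of the 40. In the VavCre Arid2 set 12 had an unadjusted p under 0.05 (19.5% of all genes), DESeq2 called 3 and voom 15, and the smallest p-values were those of Kdm2b, which recruits PRC1 to CpG islands (0.71 ± 0.23, edgeR adjusted p = 0.104), and Scmh1, a canonical PRC1 subunit (0.77 ± 0.23, edgeR adjusted p = 0.0906). Phf19, which guides PRC2 to chromatin, led the PRC2 accessory genes there (-0.76 ± 0.29, edgeR adjusted p = 0.162). The MxCre set titled A2 had 7 at an unadjusted p under 0.05 (10.6% of all genes), 0 by DESeq2 and 3 by voom, and the set titled A1b 9 (17.4%), 1 and 0. The fall of Pcgf5 differed between sets: the effect in the VavCre Arid1b set minus that in the MxCre set titled A2 was -1.81 ± 0.29 (edgeR adjusted p = 0.00361), and minus that in the set titled A1b -1.5 ± 0.29 (edgeR adjusted p = 0.0221). Sex coincided with genotype in opposite directions in the VavCre Arid1b set and the set titled A2. Sex and genotype therefore cannot be told apart in any difference that includes the VavCre Arid1b set, both of these among them. Against the VavCre Arid2 set, where Pcgf5 had a log2 fold change of -0.47 ± 0.20, the difference of -0.88 ± 0.29 did not pass (edgeR adjusted p = 0.264).

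Genes on the other side of Polycomb were looked at in the same way. Of 24 SWI/SNF subunits edgeR called 0 in each set, with 2, 0, 0 and 3 at an unadjusted p under 0.05 in the order VavCre Arid1b, VavCre Arid2, MxCre A2 and MxCre A1b, 0 by DESeq2 in each, and 2, 3, 0 and 0 by voom. The percentages of all genes with such a p were 24, 19.5, 10.6 and 17.4. Of 7 CDK inhibitor genes, which restrain the cell cycle and include textbook Polycomb targets, edgeR called 1, which rose in the VavCre Arid1b set (6.57% of all genes were called there), and 0 in the other sets. In the same order of sets 3, 3, 2 and 2 of the 7 had an unadjusted p under 0.05, DESeq2 called 1, 1, 0 and 1, and voom 3, 4, 2 and 0. Cdkn2d lay at 46.3, 44.6 and 43.9 CPM in the VavCre Arid1b controls and at 68.4, 105 and 93.1 CPM in the floxed libraries (log2 fold change 0.98 ± 0.26, edgeR adjusted p = 0.0341), and the call held in 7 of 14 settings. It was lost without any 1 of 5 libraries (controls 1, 2 and 3 and floxed 3 and 4; edgeR adjusted p from 0.0701 to 0.15). It was also lost with a term for Y-positive libraries (0.66, edgeR adjusted p = 0.363) and with the replicate block (edgeR adjusted p = 0.233). Cdkn2a, the target through which Bmi1 is best known, was low and uneven: 5.67 to 34.7 CPM in the VavCre Arid2 controls and 1.21 to 9.64 CPM in the floxed libraries (-1.99 ± 0.79, edgeR adjusted p = 0.175). Developmental regulators that Polycomb silences in most tissues were almost absent. Of 28 listed, 27 failed the filter on low counts, with 1 to 79 counts each summed over all 24 libraries (median 9). Lhx2, the 1 tested, had 934 counts in all and a log2 fold change of 3.01 ± 1.015 (SE) with floxed Arid1b under VavCre, which missed the threshold (edgeR adjusted p = 0.0782). DESeq2 and voom both called Lhx2 in that set, and neither called it in the other sets.

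Suz12 followed the cell cycle genes across libraries. The mean log2 CPM of 28 cell cycle genes and the log2 CPM of Suz12 had r = 0.84 over 24 libraries (Spearman rho 0.80), 0.80 without the 2 libraries farthest from the median and 0.74 about the group means. Of 14071 other tested genes 1.02% had an r at least as high. Ezh1 ran the other way (r = -0.76, rho -0.82, -0.70 without those 2 libraries and -0.69 about the group means), and 2.99% of genes had an r that low. Ezh2, whose promoter window also held an E2F-type motif, had r = 0.33. The remaining 7 members had r between -0.64 (Cbx2) and -0.09 (Ring1). These points share libraries and groups, so the values are descriptions. In the VavCre Arid1b set the cell cycle mean ran from 7.26 to 7.65 in controls and from 6.83 to 7.14 in floxed libraries, and in the VavCre Arid2 set from 7.42 to 7.58 and from 7.01 to 7.24. All floxed libraries were below all controls in both, as for Suz12. The MxCre groups overlapped. None of the 28 genes was called by edgeR in any set. In the VavCre Arid1b and Arid2 sets 12 and 5 had an unadjusted p under 0.05, where 24% and 19.5% of all genes had one. DESeq2 called 0 and 1, and voom 5 and 14. The part of the cell cycle genes in the level of Suz12 was not tested.

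**Figure D4:**
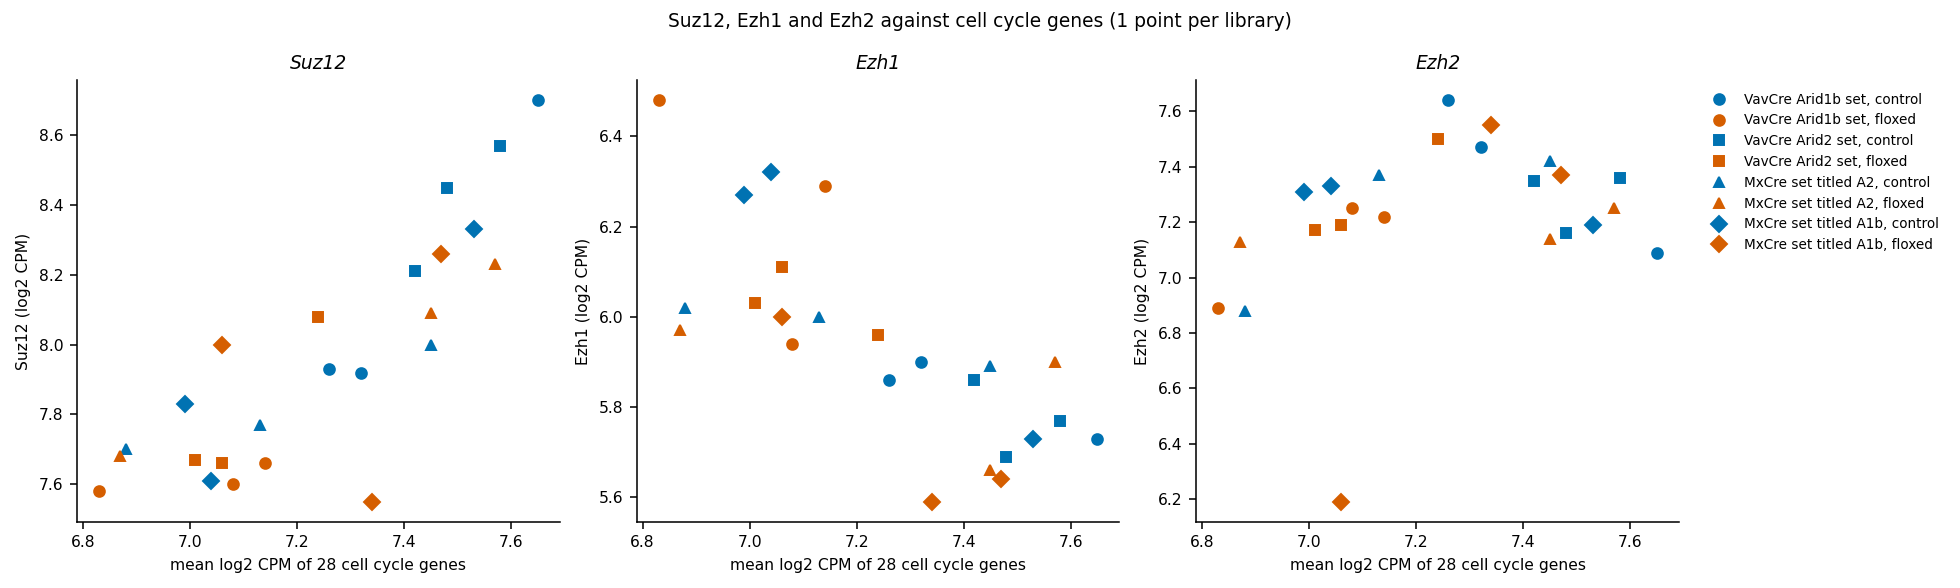
Log2 CPM of Suz12, Ezh1 and Ezh2 (vertical axes, not from 0) against the mean log2 CPM of 28 cell cycle genes (horizontal axes), 1 point per library, with blue for controls, orange for floxed libraries and a marker shape for each set. Suz12 climbs from left to right (r = 0.84), Ezh1 descends (r = -0.76) and Ezh2 shows a weak relation (r = 0.33).

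Suz12 also ran against the other members. Of its 9 pairs with them 8 had r below 0 over the 24 libraries, lowest with Cbx2 (-0.66) and Cbx8 (-0.62), whereas 7 of the 36 pairs without Suz12 did. The highest pairs were Bmi1 with Rnf2 (0.65), Ezh1 with Cbx2 and Cbx2 with Cbx8 (both 0.62). Suz12 and its catalytic partner Ezh2 had r = 0.02. The genes whose log2 CPM was most like that of Suz12 were Plk4, Odc1 and Ddias (r = 0.93 each), of which Plk4 is the kinase of centriole duplication and Odc1 the first enzyme of polyamine synthesis. Those most like Ezh1 were Ppard, Plekhg2 and Wdr81 (0.88 to 0.89), and those most like Cbx7 were Lmbr1l, 1700094D03Rik and 2810013P06Rik (0.87 to 0.89). Bmi1 was most like Zfp113, Pgap3 and Mc5r (0.79 to 0.89). For Ezh2 they were Timmdc1, Mettl15 and Bcl2l12 (0.78 to 0.81), and for Eed Chmp4b, Coro1a and Rcn3 (0.809 to 0.835). Ring1 had Pex6, Cnpy4 and Tada3 (0.79 to 0.86) and Rnf2 had Ctso, Pcp4l1 and Glb1 (0.83 to 0.84). Cbx2 was nearest to Coro7, Ckap4 and Sh2d5 (0.88 to 0.89) and Cbx8 to Ncoa7, Crlf3 and Rin3 (0.799 to 0.815).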

How the data were processed

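Bulk RNA was sequenced from 24 libraries in 8 groups of 3. The authors deposited whole-number read counts per gene, not normalized, and the submitters' processing notes name STAR and mm10. Which counter, annotation and strand setting made them is not stated in these sources. Library totals ran from 12069153 to 38315410 counts.

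Counts were scaled by TMM and filtered with filterByExpr (minimum count 10, minimum total 15), which left 14099 of 24046 genes. All groups were fitted together with edgeR 4.0.16 in R 4.3.3 (quasi-likelihood test, robust, 16 residual degrees of freedom), and p-values were adjusted over all tested genes by Benjamini-Hochberg, with a gene called under 0.05. DESeq2 1.42.0 and voom (limma 3.58.1) with sample weights were alternatives. CPM used TMM library sizes, and correlations used log2 CPM with a prior count of 2. Levels per kb used GENCODE M21 exon lengths, and promoters came from RefSeq on GRCm38.p6. The fit was also run on simulated data, and the share of changes it recovered is not given here.

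The members, lists and tests were chosen with earlier results of these data known. Genes outside the members were named by smallest p within their list (up to 3 called, otherwise up to 2), and 3 genes most like each member by r. The counts of other Polycomb genes, and Pcgf5, Yaf2 and Cdkn2d, were put through the alternative settings after their values were seen.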

Additional observations from a re-analysis of the deposited data

How the results depend on the processing

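Of 560 alternative estimates for the members, 510 kept their direction and side of the threshold, 17 kept the direction and became called, and 33 changed sign; the cause was not tested. DESeq2 called 1 member in each VavCre set, 1 in the differences VavCre Arid1b minus A2, VavCre Arid1b minus A1b and VavCre Arid2 minus A1b, and 3 in the test for any difference. Voom called 4 in each VavCre set, 1 in A2, 2, 5 and 1 for VavCre Arid1b minus VavCre Arid2, A2 and A1b, 7 and 3 for VavCre Arid2 minus A2 and A1b, 6 between VavCre controls and 8 for any difference. The fit to 6 libraries called 1 in the VavCre Arid1b set. Without the 3 libraries left out together 1, 2, 2, 3 and 3 members were called for VavCre Arid1b, VavCre Arid2, VavCre Arid1b minus A2, VavCre Arid2 minus A2 and any difference. Leaving out each library gave 0 to 1 in both VavCre sets, VavCre Arid1b minus A1b and any difference, and 0 to 2 for VavCre Arid1b minus A2 and VavCre Arid2 minus A1b.

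All-gene counts moved more. For VavCre Arid1b (926) they were 1815 by DESeq2, 4189 by voom, 101 with the Y term and 62 to 734 leaving out each library. For VavCre Arid2 (185) they were 103 with no filter, 1095 by DESeq2, 4679 by voom, 1030 from 6 libraries, 104 with the Y term, 1144 without those 3 and 15 to 227. For A2 (4) they were 196, 1202, 0 with the Y term, 33 without those 3 and 0 to 18. For A1b (1) they were 0 with no filter and from 6 libraries, 478, 12, 2 with the Y term, 8 without those 3 and 0 to 1535, the last without floxed 1. For the mean of sets (242) they were 159 with no filter, 797, 539 and 80 to 941. For any difference (1125) they were 3801, 9521, 673 with the Y term, 3167 without those 3 and 400 to 2775. Other Polycomb genes called were 4 and 10 by DESeq2 and voom in VavCre Arid1b, 1 with the Y term and 1 to 2 leaving out each library, 3 and 15 in VavCre Arid2, 6 from 6 libraries and 4 without those 3, 3 by voom in A2, and 1 by DESeq2 and 0 to 6 leaving out each library (6 without floxed 1) in A1b.

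Nothing in the labels says that equal replicate numbers in the titles pair the samples. Same-numbered deviations from the group means had r from -0.22 to 0.26, and differently numbered ones from -0.3 to 0.3. Deviations within a group cancel out, so this check cannot settle whether the numbers pair samples. With the replicate block edgeR called 1, 3, 1 and 1 genes in VavCre Arid1b, VavCre Arid2, A2 and A1b, 0 for the mean, 1 for any difference, 0 members and 0 other Polycomb genes in VavCre Arid1b. Under the block the sign turned for Bmi1 (0.039) and Ring1 (0.083) in VavCre Arid1b and Ezh2 (-0.002) in VavCre Arid2. With the Y term it turned for Bmi1 (0.091) and Ring1 (0.103) in VavCre Arid1b, Ezh2 (-0.093) in VavCre Arid2, Eed (0.042) and Ring1 (-0.084) in A2 and Cbx2 (0.043) in A1b. Ezh2 in VavCre Arid2 (0.003) was -0.001 with RLE factors, DESeq2 and 6 libraries and -0.018 with voom. Leaving out each library spanned 0 for Bmi1 (-0.249 to 0.006), Ring1 (-0.287 to 0.054) and Cbx8 (-0.405 to 0.128) in VavCre Arid1b, Ezh2 (-0.106 to 0.066) and Ring1 (-0.086 to 0.001) in VavCre Arid2, Ezh2 (-0.220 to 0.030), Rnf2 (-0.467 to 0.176), Cbx7 (-0.735 to 0.018) and Cbx8 (-0.476 to 0.053) in A2, and Ezh2 (-0.380 to 0.183), Suz12 (-0.166 to 0.243) and Cbx7 (-0.088 to 0.637) in A1b. Depth limits Cbx2 most, with 17 counts in its lowest library.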
